A study of Mus musculus with 4 samples.

Results

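A set of 10 genes that guide olfactory axons or sort them in the olfactory bulb was examined in sorted cells of the main olfactory epithelium (MOE). They are the neuropilins *Nrp1* and *Nrp2*, the plexin *Plxna1*, the semaphorins *Sema3a* and *Sema3f*, *Slit1* and its receptor *Robo2*, the adhesion molecules *Kirrel2* and *Kirrel3*, and the ephrin *Efna5*. They were chosen by name, with earlier results of these data known, as 10 of the 24421 genes in the deposited expression values. All 10 were above 0 in all 4 libraries. The study asked whether each of 2 enhancers of the *Taar* gene cluster drives a reporter in olfactory sensory neurons (OSNs) that express trace amine-associated receptors. It used a TAAR enhancer 1-GFP transgenic line and a TAAR enhancer 2-tdTomato transgenic line, both labelled C57BL/6, with each enhancer placed before the Hsp68 minimal promoter and the transgene integrated with PiggyBac. Each line was bred from 1 founder. Reporter-positive and reporter-negative cells of each line were separated by FACS, and each of the 4 groups has 1 RNA-seq library. The labels give the mice as adult, while the animal list of the paper gives juvenile postnatal ages for both lines and a mixed background for its mice. Whether cells of several mice were pooled is not stated in the sources used here.

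OSN axons find their target in the olfactory bulb in steps. Along the dorsal-ventral axis, *Robo2* and *Nrp2* mark axons of opposite zones and respond to the repellents Slit and Sema3F. Along the anterior-posterior axis, *Nrp1* is set by cAMP signals of the receptor and binds Sema3A, with class A plexins as the signalling partner of neuropilins. Near the target, axons of like identity are sorted into glomeruli by adhesion through Kirrel2 and Kirrel3 and by contact repulsion between ephrin-A and EphA proteins, with levels that depend on neuronal activity. OSNs that express TAARs send their axons mostly to a cluster of glomeruli in the dorsal bulb.

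The values are in TPM, a unit of transcript abundance, which correct for transcript length and scale every library to a total of 1000000. Levels of different genes within a library can therefore be compared, while sequencing depth cannot be read from them. Fold changes are differences of log2(TPM + 1), reporter-positive minus reporter-negative, and a gene was counted as higher or lower when it differed by at least 2-fold on that scale. A value written as N-fold is a plain ratio of TPM. With 1 library per group no difference has a replicate check, no spread can be given, and no p-value was calculated. In bulk libraries of sorted cells, fewer cells of a type and less RNA per cell cannot be told apart.

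The upstream sequences of *Kirrel2* and *Efna5* are shown because *Kirrel2* had the largest difference of the 10 genes in the line with TAAR enhancer 1 (the GFP line below) and *Efna5* the largest in the line with TAAR enhancer 2 (the tdTomato line). Both are from RefSeq on GRCm38.p6, read 5′ to 3′ on the minus strand, which is that of each gene, and cut to the bases outside every exon of the GENCODE M21 annotation. The *Kirrel2* stretch is chr7:30457691-30457765 and ends 175 bases before the RefSeq start site, the *Efna5* stretch is chr17:62881318-62881567 and ends at the start site, and capitals mark CG dinucleotides.
Kirrel2: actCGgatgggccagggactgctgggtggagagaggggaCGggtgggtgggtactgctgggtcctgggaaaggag
Efna5: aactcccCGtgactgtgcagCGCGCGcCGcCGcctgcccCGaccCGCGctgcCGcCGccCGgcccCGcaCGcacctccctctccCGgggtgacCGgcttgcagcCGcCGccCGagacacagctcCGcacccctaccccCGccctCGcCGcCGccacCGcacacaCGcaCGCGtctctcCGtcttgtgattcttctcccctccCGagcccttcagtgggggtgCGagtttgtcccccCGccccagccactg

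The stretches differ in CG content. Over the 250 bases before the start site, *Kirrel2* has 4 CG dinucleotides and *Efna5* has 32, and the median of the 32851 RefSeq windows of that length is 6. RefSeq windows were held for 6 of the 10 genes (8 windows, as *Robo2* has 3), and none for *Plxna1*, *Sema3f*, *Slit1*, and *Kirrel3*. Some lie away from the GENCODE gene starts given below. The *Robo2* windows from 75092721 and 75447244 are outside its GENCODE span. Those of *Sema3a* (from 13396534) and *Nrp1* (from 128358823) are inside theirs. The palindrome bound by Ebf factors of OSNs (TCCC, any 2 bases, then GGGA) was in none of the 8 windows and in 0.779% of all windows, searched on both strands. The homeodomain palindrome TAATTA was in none of the 8 and in 4.84% of all, and its shorter core TAAT, which lies within it, was in 4 of the 8 and in 54.9% of all.

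The *Kirrel2* start site also lies close to another gene of its family. In GENCODE M21, *Kirrel2* (chromosome 7, 30447534 to 30457690, minus strand) and *Nphs1* (30458315 to 30487223, plus strand), which encodes nephrin, point away from each other with 624 bases between their starts. The other genes are spread over the genome. *Nrp2* is on chromosome 1 (62703285 to 62818695, plus strand), *Sema3a* on chromosome 5 (13125414 to 13602565, plus strand), and *Plxna1* on chromosome 6 (89316314 to 89362620, minus strand). *Nrp1* is on chromosome 8 (128358604 to 128503363, plus strand), *Robo2* on chromosome 16 (73891839 to 74411825, minus strand), *Efna5* on chromosome 17 (62604184 to 62881317, minus strand), and *Slit1* on chromosome 19 (41600257 to 41743665, minus strand). *Kirrel3* (34485894 to 35036716, plus strand) and *Sema3f* (107681500 to 107710475, minus strand) are both on chromosome 9. No member shares a 50-base transcript window with another member, while up to 1.18% of the windows of *Sema3a*, *Nrp2*, and *Nrp1* are shared with other genes. *Plxna1* shares 970 exon bases with the antisense gene *Gm26811*, and reads of the 2 genes cannot be told apart if the counting ignored strand, which the sources used here do not give.

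The libraries differed in ways that bear on every gene. Of 12 mature OSN markers, 12 passed as at least 2-fold lower in the GFP line and 7 in the tdTomato line, where 45% and 23.2% of all genes were lower. Their median log2 fold changes were -3.08 and -1.04, and those of all genes -0.88 and -0.23. *Omp*, the marker of mature OSNs, was at 9584 TPM and 1108 TPM (GFP-negative, then GFP-positive) and at 10108 and 4427 TPM for the tdTomato gate. The summed TPM of 15 *Taar* genes, the family whose olfactory members the enhancers control, was 86.1 and 804 in the GFP line, and 60.8 and 3476 in the tdTomato line. The summed TPM of 8 Bowman gland markers ran from 3162 to 158306 and from 10796 to 55351 in the same order, and that of 8 sustentacular cell markers from 1530 to 14207 and from 2633 to 13319. All 8 of each list were at least 2-fold higher in the GFP line, while in the tdTomato line 5 gland markers were higher and 3 lower, and 4 sustentacular markers were higher and 2 lower. Of all genes, 14.2% were higher in the GFP line, and 17.2% were higher and 23.2% lower in the tdTomato line. The 10 highest genes took 31.5% of all TPM in GFP-positive cells and 5.72% to 9.44% in the other libraries.

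Most of the 10 guidance genes were lower in reporter-positive cells of both lines in TPM as deposited, and none was at least 2-fold lower after scaling to mature OSN markers. In the GFP line, 8 of 10 were at least 2-fold lower and none was at least 2-fold higher. Of the 16173 genes that reached 1 TPM in the GFP line, 45% were lower by the same rule and 14.2% higher. In the tdTomato line, 8 of 10 were again lower and none was higher, against 23.2% lower and 17.2% higher of 15777 genes. Most of these values were just past 2-fold, and the count was 4 with a median-ratio scaling, 3 with a pseudocount of 10, and 0 at 4-fold. Of the 10, 7 were lower in both lines, against 13.7% of the genes that reached 1 TPM anywhere, and these were *Nrp1*, *Nrp2*, *Plxna1*, *Slit1*, *Robo2*, *Kirrel3*, and *Efna5*. The median log2 fold change of the 10 genes was -2.28 in the GFP line, where that of all genes was -0.88, and -1.12 in the tdTomato line, where that of all genes was -0.23.

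**Figure D1:**
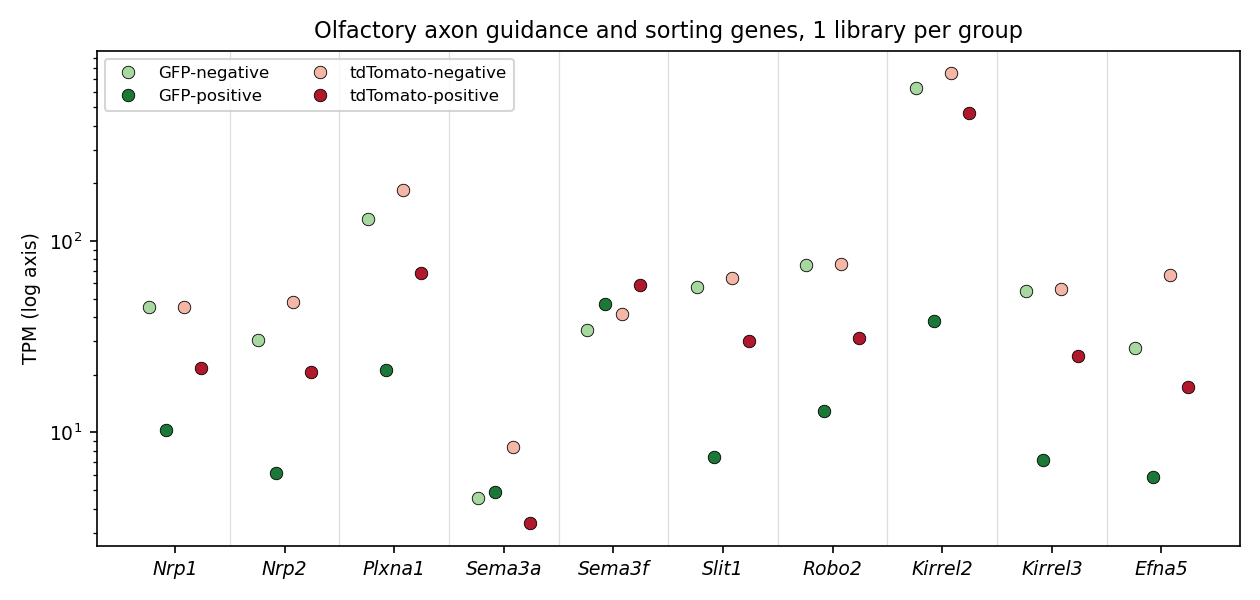
TPM (log axis) of the 10 genes in each of the 4 libraries, with 1 point per library and no error bars since each group has 1 library. *Kirrel2* had the highest value in 3 libraries, and in GFP-positive cells *Sema3f* (47.0 TPM) was above *Kirrel2* (38.0 TPM).

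The neuropilin *Nrp1*, the receptor of Sema3A, was 45.3, 10.3, 45.3, and 21.7 TPM in GFP-negative, GFP-positive, tdTomato-negative, and tdTomato-positive cells. Both reporter-negative libraries were thus at the same level, and both reporter-positive ones were lower, with log2 fold changes of -2.03 and -1.03. *Nrp2*, the receptor of Sema3F that marks ventral axons, was 30.3, 6.11, 48.2, and 20.7 TPM in the same order of libraries. Its reporter-positive values were lower than both reporter-negative values as well, with log2 fold changes of -2.14 and -1.18.

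The ratio of *Nrp1* to *Nrp2* within a library cannot be changed by how that library is scaled. It was 1.5 and 1.69 in the GFP line, negative before positive, and 0.94 and 1.05 in the tdTomato line. The ratio was therefore 1.13-fold and 1.12-fold higher in the reporter-positive cells of each line, while it was higher in both GFP-line libraries than in both tdTomato-line libraries. The co-receptor *Plxna1* was 129.6, 21.2, 185.5, and 67.9 TPM, rank 2 of the 10 genes in 3 libraries and rank 3 in GFP-positive cells. It was 6.10-fold lower in GFP-positive cells and 2.73-fold lower in tdTomato-positive cells, with log2 fold changes of -2.55 and -1.44.

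*Sema3f* differed from its receptor *Nrp2* in both lines, and *Sema3a* from *Nrp1* in the GFP line. *Sema3f*, the repellent that sorts *Nrp2*-positive axons, was 34.2 and 47.0 TPM in the GFP line, negative before positive, and 41.6 and 58.8 TPM in the tdTomato line. It was the 1 gene of the 10 with a higher value in the reporter-positive library of both lines, by 1.38-fold and 1.41-fold, which is under the 2-fold rule. Its rank among the 10 genes was 7 in GFP-negative and 1 in GFP-positive cells, against 9 and 3 in the tdTomato line. The ratio of *Sema3f* to *Nrp2* was 1.13 and 7.70 in the GFP line and 0.862 and 2.84 in the tdTomato line.

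*Sema3a*, which repels axons with *Nrp1*, was the lowest of the 10 genes in every library. It was 4.57 and 4.89 TPM in the GFP line, negative before positive, and 8.34 and 3.36 TPM in the tdTomato line. The values of the GFP line were nearly equal (log2 fold change 0.083), and in the tdTomato line the reporter-positive value was lower (-1.10). With no value above 10 TPM and unknown depth, these differences rest on few TPM. The summed TPM of multiciliated cell markers (8 genes) was 732 and 2731 in the GFP line and 661 and 8743 in the tdTomato line, negative before positive, higher in reporter-positive cells of both lines. The gland and sustentacular sums were higher in both lines too, although single markers of both lists were lower in the tdTomato line. The part of these cells in the values of *Sema3f* and *Sema3a* was not tested.

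*Robo2*, which marks dorsal axons, was 74.5, 13.0, 76.0, and 31.0 TPM in GFP-negative, GFP-positive, tdTomato-negative, and tdTomato-positive cells. The reporter-negative libraries were close to each other, and the log2 fold changes were -2.43 and -1.27. Its ligand *Slit1* was 57.5, 7.44, 64.4, and 30.0 TPM in the same order, with log2 fold changes of -2.79 and -1.08. *Slit1* was thus 7.73-fold lower in GFP-positive and 2.15-fold lower in tdTomato-positive cells. The ratio of *Robo2* to *Slit1* was 1.30, 1.75, 1.18, and 1.03, a range narrower than that of either gene alone.

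*Kirrel2*, whose protein adheres to itself on axons of like activity, was by far the highest of the 10 genes in reporter-negative cells. It was 631 and 38.0 TPM in the GFP line, negative before positive, and 751 and 466 TPM in the tdTomato line. The difference was unequal in the lines, at 16.6-fold lower in GFP-positive and 1.61-fold lower in tdTomato-positive cells. On the log2 scale the values were -4.02, the lowest of the 10 genes in the GFP line, and -0.69, the second highest after *Sema3f* in the tdTomato line. In the GFP line, 2.93% of all genes had a lower log2 fold change than *Kirrel2*, and in the tdTomato line 31.9% did.

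*Kirrel3*, the related molecule that is found on axons with low *Kirrel2*, was 54.9, 7.20, 56.1, and 25.0 TPM, with log2 fold changes of -2.77 and -1.13. The ratio of *Kirrel2* to *Kirrel3* was 11.5 for the GFP-negative and 5.28 for the GFP-positive library. In the tdTomato line the ratio was 13.4 in negative and 18.6 in positive cells. Relative to *Kirrel3*, *Kirrel2* was therefore 2.18-fold lower in reporter-positive cells of the GFP line and 1.39-fold higher in those of the tdTomato line. The difference between the lines was not tested, since each group has 1 library and the lines also differ in enhancer and reporter.

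The neighbour of *Kirrel2*, *Nphs1*, was 18.2 and 1.68 TPM in the GFP line, and 32.4 and 22.7 TPM in the tdTomato line, and its exons overlap those of the antisense gene *Nphs1os*. Its log2 fold changes, -2.84 and -0.50, were lower in the GFP line than in the tdTomato line. So were the medians of the 12 mature OSN markers, at -3.08 and -1.04, and this difference is not particular to *Kirrel2* and its neighbour. The value of *Nphs1* in GFP-positive cells was also low, at 1.68 TPM. The ratio of *Kirrel2* to *Nphs1* stayed between 20.6 and 34.6 over the libraries.

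*Efna5*, a ligand of EphA receptors, was 27.4 and 5.86 TPM in the GFP line, negative before positive, and 66.1 and 17.3 TPM in the tdTomato line. Its log2 fold changes were -2.05 and -1.87, and the latter was the lowest of the 10 in the tdTomato line. It was also the 1 gene of the 10 that differed by at least 2-fold between the reporter-negative libraries, with 2.41 times the TPM in tdTomato-negative cells. *Epha5*, one of the EphA receptors, was 17.1, 2.44, 25.4, and 20.5 TPM. The ratio of *Efna5* to *Epha5* was 1.6 and 2.40 in the GFP line, against 2.61 and 0.844 in the tdTomato line. *Epha7*, another EphA receptor, was 11.7, 2.18, 28.3, and 12.6 TPM. Its log2 fold changes were -2.00 and -1.10, against -2.39 and -0.29 for *Epha5*, so the ratio depends on which receptor is taken.

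**Figure D2:**
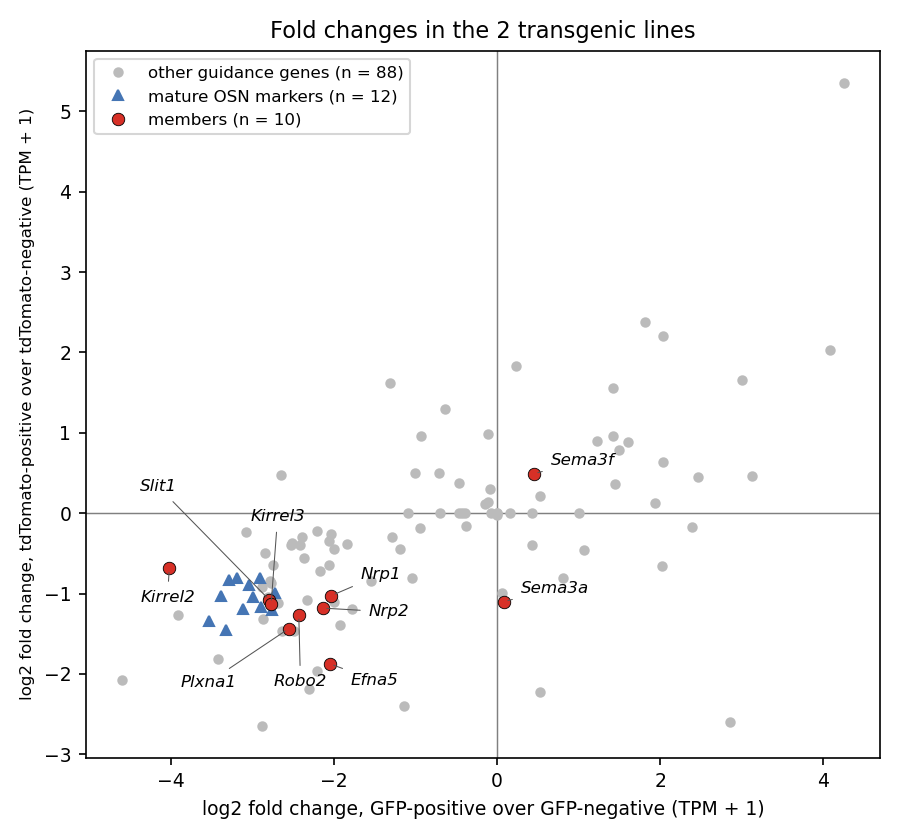
Log2 fold change of TPM + 1 in the TAAR enhancer 1-GFP line (x axis) against the TAAR enhancer 2-tdTomato line (y axis) for the 10 genes (red), 88 other guidance genes (grey), and 12 mature OSN markers (blue triangles), with 1 library per group. *Slit1* and *Kirrel3* lie among the OSN markers, *Kirrel2* lies to their left, and *Sema3f* (0.45 and 0.49) lies at the upper right of the 10.

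Because *Omp* itself was lower in reporter-positive cells, each gene was also set against *Omp* in the same library, a ratio that no scaling of the library changes. *Kirrel3* was 5.73, 6.50, 5.55, and 5.65 TPM per 1000 TPM of *Omp*, with libraries in the order used above. *Slit1* was 6.00, 6.72, 6.37, and 6.77 TPM per 1000 TPM of *Omp*. Both genes thus kept nearly the same ratio to *Omp* in all 4 libraries.

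In the tdTomato line, 8 of the 10 genes had a ratio to *Omp* within 1.5-fold between positive and negative cells, and the exceptions were *Efna5* (0.598 times) and *Sema3f* (3.23 times). In the GFP line, 3 of 10 did (*Plxna1*, *Slit1*, and *Kirrel3*). Of all genes above 0 in both libraries of a line and at 1 TPM or more in either, 22.7% were within 1.5-fold of *Omp* in the tdTomato line and 7.40% in the GFP line. *Kirrel2* went from 65.8 to 34.3 TPM per 1000 TPM of *Omp* in the GFP line and went from 74.3 to 105.3 in the tdTomato line. *Sema3f* went from 3.57 to 42.5 in the GFP line (11.9 times) and from 4.11 to 13.3 in the tdTomato line. *Nrp1* went from 4.73 to 9.32, *Nrp2* from 3.16 to 5.52, and *Sema3a* from 0.476 to 4.42 in the GFP line. In the tdTomato line the same genes had 4.48 and 4.91, 4.77 and 4.68, and 0.825 and 0.758.

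**Figure D3:**
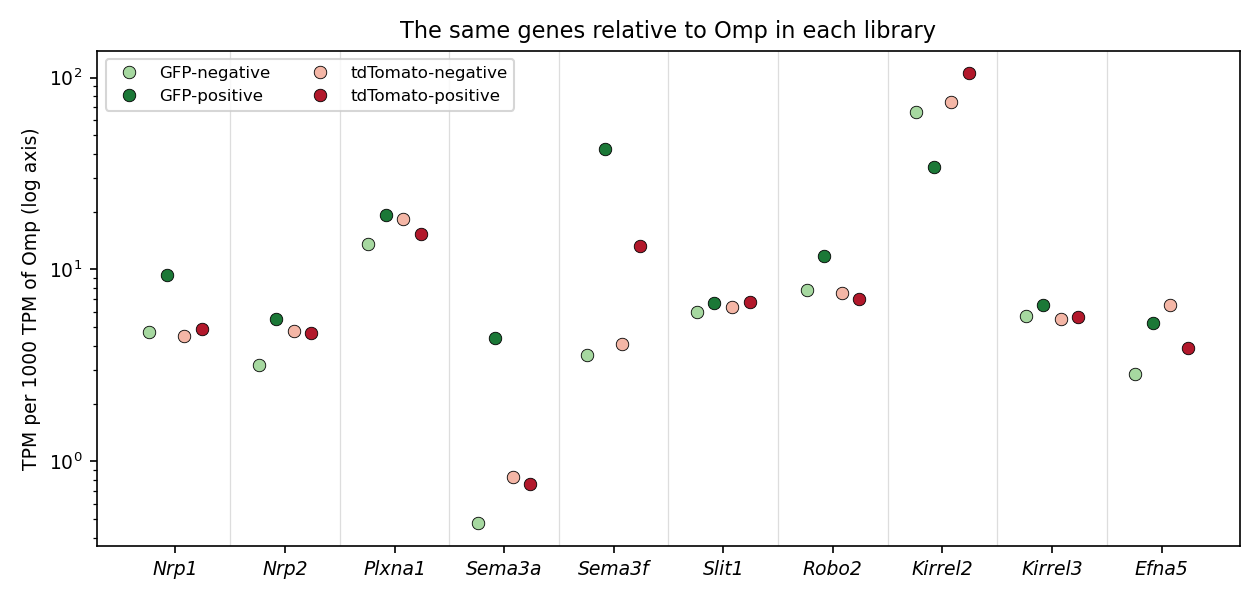
TPM of the 10 genes per 1000 TPM of *Omp* (log axis) in the 4 libraries, with 1 point per library. *Slit1* and *Kirrel3* sit at one level in all 4 libraries, *Sema3f* is 42.5 in GFP-positive and 13.3 in tdTomato-positive cells against 3.57 and 4.11 in the negative cells, and *Kirrel2* is lowest in GFP-positive cells (34.3).

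Each library was also scaled to the same mean of the 12 mature OSN markers. *Omp* is one of them, so this largely repeats the ratio to *Omp* and is no independent support. After it, none of the 10 genes was at least 2-fold lower in either line, against 7.72% and 12.3% of all genes, and *Kirrel2* was at -0.95 in the GFP line. *Sema3f* (3.49) and *Sema3a* (2.76) were at least 2-fold higher in the GFP line, where 77.1% of all genes were, and *Sema3f* (1.52) alone of the 10 in the tdTomato line, where 39% of all genes were. Against a background of that size, a higher value of *Sema3f* relative to OSN markers is not particular to it.

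The libraries of the same gate can be set side by side across the lines, although line, reporter, and sort differ. Between the reporter-negative libraries, 1 of the 10 genes (*Efna5*) differed by at least 2-fold, against 23.8% of 15899 genes. Between the reporter-positive libraries, 8 of the 10 did, against 46.7% of 15121 genes, and each of these 8 was higher in tdTomato-positive cells. All genes were shifted the same way, with a median of 0.69, and 34.9% were at least 2-fold higher and 11.7% lower in tdTomato-positive cells. The count of 8 was 3 with the median-ratio scaling, 4 with the scaling to OSN markers or a pseudocount of 10, and 1 at 4-fold. With the OSN scaling, the 4 were *Kirrel2*, higher in tdTomato-positive cells, and *Sema3f*, *Sema3a*, and *Nrp1*, lower there. Per 1000 TPM of *Omp*, only *Kirrel2* (34.3 and 105.3, GFP-positive first) and *Slit1* (6.72 and 6.77) were higher in tdTomato-positive cells. The other genes were lower there, among them *Sema3f* (42.5 and 13.3) and *Sema3a* (4.42 and 0.758). In TPM as deposited, *Kirrel2* differed most, with 38.0 TPM in GFP-positive and 466 TPM in tdTomato-positive cells. On that scale alone, *Sema3f* and *Sema3a* were the 2 genes that stayed under 2-fold.

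Of the other guidance genes, those most like each of 9 members were sought (*Sema3a* was left out, since it did not reach 10 TPM) among 56 genes that reached 10 TPM, as the smallest root mean square difference of log2(TPM + 1) over the 4 libraries, each gene centred on its own mean. This is a description over 4 points. The semaphorin *Sema4d* was closest to *Plxna1* (0.03), and *Dscam*, an adhesion molecule of neurons, was closest to *Kirrel3* (0.04). *Ncam2*, which marks ventral axons, was closest to *Slit1* (0.08), and *Dpysl5*, a semaphorin signal protein of young neurons, to *Robo2* (0.08). For *Nrp1* it was *Crmp1* (0.16), for *Nrp2* it was *Kirrel* (0.18), for *Sema3f* it was *Neo1* (0.24), and for *Efna5* it was *Sema4d* (0.28). *Kirrel2* had no close match, and its nearest gene was its neighbour *Nphs1* (0.42), followed by *Ncam1* (0.43).

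The 88 other genes of the semaphorin, Slit, ephrin, and netrin pathways and of axon adhesion fell into 10 groups. In the GFP line, 42 were at least 2-fold lower and 20 at least 2-fold higher, and the median of their log2 fold changes was -0.82. In the tdTomato line, 18 were lower and 9 higher, with a median of -0.23. The medians of all genes at 1 TPM or more were -0.88 and -0.23, while the 88 genes were taken without a minimum. With a minimum of 10 TPM, the median of the guidance genes was -2.06 in the GFP line and -0.39 in the tdTomato line. Of all genes, 45% were lower and 14.2% higher in the GFP line, and 23.2% lower and 17.2% higher in the tdTomato line, and the counts of each group below stand against these shares. In both lines 16 of the 88 were lower and 6 were higher, against 13.7% and 7.48% of all genes.

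Genes of semaphorin signalling and axon adhesion were mostly lower in GFP-positive cells. Among the 11 genes of semaphorin signalling, 8 were lower and none higher in the GFP line, and 6 lower and none higher in the tdTomato line. *Dpysl3*, which encodes a collapsin response mediator, was 204.3, 58.8, 184.8, and 80.1 TPM. *Dpysl3* and *Dpysl5* of this group are also among the immature OSN markers. *Mical1*, an oxidase that acts downstream of plexins, had 30.6 and 0.306 TPM in the GFP line and 21.7 and 4.4 TPM in the tdTomato line, with log2 fold changes of -4.60 and -2.07. Of 11 adhesion molecules, 7 were lower and 1 was higher in the GFP line, and none passed the rule in either direction in the tdTomato line. The highest of them, *Cntn4* (BIG-2), a contactin on subsets of OSN axons, was 549, 78.9, 509, and 282 TPM.

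Of 8 plexins, 5 were lower in the GFP line and 3 in the tdTomato line, where 1 was higher. *Plxnb2* was highest, at 307, 152, 298, and 422 TPM, and *Plxnd1* was lower in both lines, at 16.8 and 1.42 TPM and at 17.4 and 1.94 TPM, with log2 fold changes of -2.88 and -2.64. Of 13 membrane semaphorins, 10 were lower in the GFP line and 4 in the tdTomato line, and 1 was higher in each. *Sema7a*, a membrane-bound semaphorin, was 283 and 17.8 TPM in the GFP line, and 248 and 102 TPM in the tdTomato line. Both nephrin family genes were lower in the GFP line and neither was by 2-fold in the tdTomato line, among them *Kirrel* at 62.7, 13.1, 74.4, and 44.7 TPM.

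Among A-class ephrins and Eph receptors (13 genes), 3 were lower and 4 higher in the GFP line, and 2 were lower and 2 higher in the tdTomato line. *Efna3*, the highest of them, was 543, 73.2, 751, and 300.2 TPM, with log2 fold changes of -2.87 and -1.32.

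Of 5 secreted semaphorins other than *Sema3a* and *Sema3f*, 3 were higher and 1 lower in the GFP line, and 2 higher and none lower in the tdTomato line. *Sema3c* was listed at 0 in GFP-negative cells and at 15.9 TPM in GFP-positive cells, and it was 0.345 and 4.5 TPM in the tdTomato line. *Sema3e*, which had the highest single value of the group, was 7.06, 8.50, 6.94, and 27.3 TPM. *Slit2* was 1.69 and 9.98 TPM in the GFP line and 3.49 and 19.6 TPM in the tdTomato line (5.91-fold and 5.63-fold higher), opposite to *Slit1*. *Robo1*, the related Slit receptor, was 30.0, 11.7, 34.5, and 27.8 TPM.

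Netrins and their receptors were mixed, with 4 of 12 lower and 3 higher in the GFP line, and 3 lower and 1 higher in the tdTomato line. *Ntn4*, a laminin-related netrin, was listed at 0 in GFP-negative cells and was 18.0 TPM in GFP-positive cells, and it was 1.16 and 87.4 TPM in the tdTomato line. The netrin receptor *Unc5b* was 71.0, 11.5, 89.1, and 67.5 TPM.

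**Figure D4:**
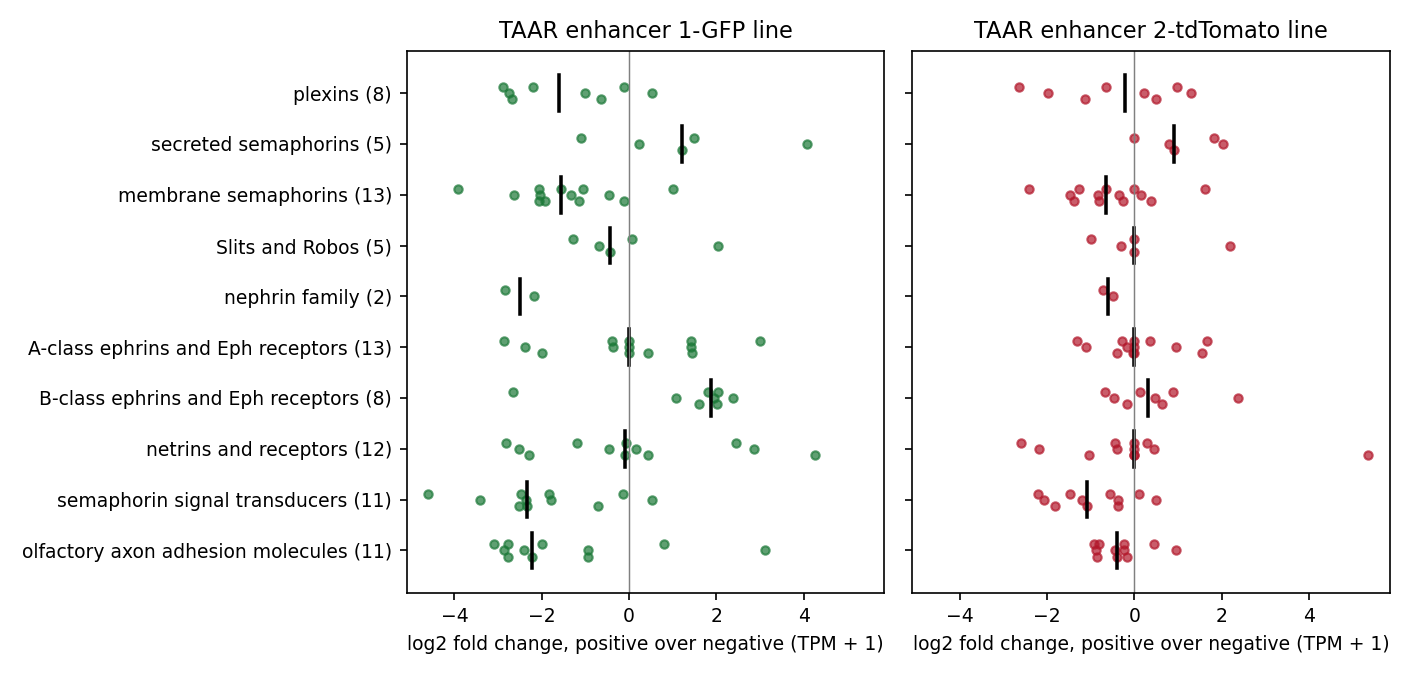
Log2 fold change of TPM + 1, reporter-positive over reporter-negative, for the 88 other guidance genes in 10 groups (number of genes in parentheses) in the TAAR enhancer 1-GFP line (left) and the TAAR enhancer 2-tdTomato line (right). Points are genes and black bars are medians, and the semaphorin signal transducers have the lowest median among groups of more than 2 genes in both lines (-2.33 and -1.08). This group shares *Dpysl3* and *Dpysl5* with the immature OSN markers.

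Of 7 cAMP and activity genes, 6 were at least 2-fold lower in the GFP line and 2 (*Cnga2* and *Cnga4*) in the tdTomato line, against 45% and 23.2% of all genes, and none was higher. Of these genes, *Gnal*, *Adcy3*, *Cnga2*, *Cnga4*, and *Cngb1* are also among the mature OSN markers. *Adcy3*, the adenylyl cyclase of OSNs, was 872 and 88.3 TPM in the GFP line and 1177 and 663 TPM in the tdTomato line. *Cnga2*, the channel subunit opened by cAMP, was 1091 and 146 TPM, and 1216 and 541 TPM. *Gnas*, the stimulatory G protein that acts in immature OSNs to set *Nrp1*, was 56.3 and 91.2 TPM, and 55.1 and 90.9 TPM, and so was higher in reporter-positive cells of both lines by less than 2-fold. The part of cells other than OSNs in the values of *Gnas* was not tested.

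Of 3 zone markers, 2 were at least 2-fold lower in the GFP line and 1 (*Nqo1*) in the tdTomato line, against 45% and 23.2% of all genes. The dorsal marker *Nqo1* was 1308 and 226 TPM in the GFP line and 949 and 301 TPM in the tdTomato line, with log2 fold changes of -2.53 and -1.66. The ventral marker *Ncam2* was 47.4 and 6.08 TPM, and 48.5 and 26.0 TPM, with log2 fold changes of -2.77 and -0.87. *Acsm4*, another dorsal marker, was 343 and 238 TPM, and 311 and 351 TPM.

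*Nrp1* and *Plxnd1* are also genes of blood vessels, and the summed endothelial markers were lower in reporter-positive cells as well. The summed TPM over 7 genes was 53.1 and 1.72 in the GFP line, and 42.9 and 6.43 in the tdTomato line, most of it from *Pecam1* (41.2 and 41.0 TPM in the negative libraries), which immune cells share. Of the 7, 4 were at least 2-fold lower in the GFP line and 2 in the tdTomato line, where their median log2 fold change was -0.022. The defining markers *Cdh5* and *Cldn5* were at most 1.79 TPM in any library and at 0 in both reporter-positive ones. Of 7 immune markers, 6 were at least 2-fold lower in each line, against 45% and 23.2% of all genes, and the remaining one was at least 2-fold higher in the tdTomato line. The part of these cells in the values of *Nrp1* was not tested.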

How the data were processed

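RNA-seq was analysed from 4 libraries of FACS-sorted MOE cells, 1 for each sort gate of 2 transgenic lines. Groups were taken from the sample titles. The authors deposited 1 TPM value per library for each gene symbol. The submitters' processing notes name Trimmomatic 0.36, Salmon 1.4.0, and mm10, while the RNA-seq methods of the paper name Hisat2, Cufflinks, and featureCounts for mm10. Which step gave the TPM values and the annotation are not given in the sources used here. The methods describe Smart-seq2 libraries, while the labels name other kits.

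TPM values were used without a filter, with a pseudocount of 1. A call is a difference of at least 2-fold, and its background is every gene with at least 1 TPM in either library. TPM keeps no depth, so no intervals or detection limits were calculated. The 10 genes, the 88 other guidance genes, and the marker lists were chosen with earlier results of these data known. Named guidance genes are the highest of each group and those at least 4-fold apart in the same direction in both lines with at least 10 TPM, plus the closest genes to each member. *Epha5*, *Epha7*, and *Nphs1* were added as partners and neighbour after their values were seen, and so was the count of genes within 1.5-fold of *Omp*. Alternatives were pseudocounts of 0.1 and 10, thresholds of 1.5-fold and 4-fold, a minimum of 10 TPM, a median-ratio scaling over 11943 genes, a rescaling without 24 highest genes, and a scaling to 12 mature OSN markers. The functions were tested on simulated data. Positions and transcripts are from GENCODE M21 (GRCm38). The calculations used pandas 2.3.3 and NumPy 2.4.6 in Python 3.11.15, and plots matplotlib 3.10.9.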

Additional observations from a re-analysis of the deposited data

Results flagged for a closer look

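Opposite signs in the 2 lines were looked for in the 10 genes at any size, and in the 88 other guidance genes where both differences were at least 2-fold. This gave 1 gene of the 10 and 2 of the others, each from 1 library per group, and further guidance genes had opposite signs with smaller differences. The difference was not tested. *Sema3a* was at 0.083 (log2 fold change) for TAAR enhancer 1-GFP mice and at -1.10 for TAAR enhancer 2-tdTomato mice. *Sema6c*, a membrane semaphorin, had -1.32 and 1.62, from 16.0 to 5.83 TPM and from 10.3 to 33.7 TPM. *Unc5a*, a netrin receptor, had 2.85 and -2.60, and since it was listed at 0 in GFP-negative and in tdTomato-positive cells, with 6.23 and 5.05 TPM in the other libraries, its values depend on the pseudocount. The last 2 genes were named after their values were seen.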

How the results depend on the processing

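Each fold change sets the positive against the negative library of the same line. No test over pairs was made, because the groups hold a single library each, without replicate numbers, and the lines differ in enhancer and reporter. A log2 value is said to move when it changed by more than 0.58 (1.5-fold), and a count when it changed by more than 1.5 times. The unknown depth limits genes with low TPM most, such as *Sema3a*.

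Each scaling multiplies all genes of a library by 1 factor, and raised the all-gene median by 2.89 (GFP line) and 0.98 (tdTomato line) for the OSN markers, by 0.81 and 0.15 for the median-ratio, and by 0.45 and 0.05 without the highest genes. With the OSN scaling, members lower went from 8 to 0 in each line and members higher from 0 to 2 (GFP) and 1 (tdTomato). Other guidance genes became 44 higher and 2 lower in the GFP line and 25 higher and 7 lower in the tdTomato line, with medians of 0.99 and 0.44, and 4 members differed between the reporter-positive libraries. Of these 4, *Kirrel2* was higher in tdTomato-positive cells, while *Sema3f*, *Sema3a*, and *Nrp1* were lower there. Under the OSN scaling, log2 fold changes in the GFP line turned to 0.93 for *Nrp1*, 0.75 for *Nrp2*, 0.48 for *Plxna1*, 0.14 for *Slit1*, 0.56 for *Robo2*, 0.16 for *Kirrel3*, and 0.83 for *Efna5*, and to 0.0040 for *Nrp1* in the tdTomato line. With the median-ratio scaling, 1 member (*Sema3f*) was higher in the GFP line, 4 were lower in the tdTomato line, 3 differed between the reporter-positive libraries, and the other guidance genes had a median of -0.19 in the GFP line.

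With a pseudocount of 10, 3 members were lower in the tdTomato line and 4 differed between the reporter-positive libraries, while 4 other guidance genes were higher in the GFP line, and 5 were higher and 10 lower in the tdTomato line. With a minimum of 10 TPM, 10 other guidance genes were higher in the GFP line and the median was -2.06. At 4-fold, none of the members was lower in the tdTomato line, 0 differed between the reporter-negative libraries and 1 between the reporter-positive libraries, 10 other guidance genes were higher in the GFP line, and 4 were higher and 6 lower in the tdTomato line. At 1.5-fold, 16 other guidance genes were higher and 29 lower in the tdTomato line, and 3 members differed between the reporter-negative libraries. Over all alternatives, 82 values of single members did not move, 28 moved, and 8 that had passed 2-fold turned. *Kirrel2* in the tdTomato line, which had not passed 2-fold, also changed sign with the OSN scaling, to 0.38, and is counted among the 28.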

Other observations

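The B-class ephrins and Eph receptors, which were given no values above, were mostly higher in the TAAR enhancer 1-GFP line. Of 8 genes, 7 were at least 2-fold higher and 1, *Efnb3*, was lower (20.3 and 2.38 TPM), where 14.2% of all genes were higher and 45% lower. The 7 were at 17.5 TPM or less in GFP-positive cells, and with a pseudocount of 10 none of them was at least 2-fold higher. In the TAAR enhancer 2-tdTomato line 1 of 8 was higher and none was lower, against 17.2% and 23.2% of all genes, and *Efnb3* was 11.9 and 17.0 TPM. Their summed TPM was 39.0 in GFP-negative and 78.6 in GFP-positive cells, and 47.2 in tdTomato-negative and 68.5 in tdTomato-positive cells.

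Immature OSN markers, which are of interest because axons are guided while OSNs mature, were lower in GFP-positive cells in 8 of 8 genes, with a median log2 fold change of -2.32, and in 4 of 8 genes by at least 2-fold in tdTomato-positive cells, with a median of -1.07. The globose basal cell list was lower in 4 of 6 genes and higher in 2 in the GFP line, and lower in 5 of 6 in the tdTomato line. Horizontal basal cell markers were higher in 5 of 5 genes in the GFP line, and lower in 4 and higher in 1 in the tdTomato line. Of 6 olfactory ensheathing cell markers, 3 were lower and 1 higher in the GFP line, and 1 was lower and 3 higher in the tdTomato line, with a summed TPM of at most 57.8. Stromal markers were higher in 3 of 6 and lower in 2 in the GFP line, and none passed the rule in the tdTomato line. Beside these counts, 45% of all genes were lower and 14.2% higher in the GFP line, and 23.2% lower and 17.2% higher in the tdTomato line.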
